A study of Mus musculus with 12 samples.

Results

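The antioxidant and NRF2 pathway genes described here are 37 genes, chosen by gene symbol, of the 25078 genes in the deposited tables. All 37 were present and all 37 passed the filter on low counts, which kept 14599 genes. They cover 9 roles: the regulators Nfe2l2 and Keap1, NRF2 target enzymes, glutathione synthesis and reduction, the thioredoxin system, peroxiredoxins, enzymes that remove superoxide and peroxide, glutathione S-transferases, enzymes that supply NADPH, and ferritin. RNA was measured by stranded RNA sequencing after removal of ribosomal RNA in LSK cells, the bone marrow fraction negative for lineage markers and positive for Sca1 and Kit that holds blood stem cells and early progenitors. The 4 groups were wild-type cells without irradiation (WT NIR), wild-type cells harvested 24 hours after 3.5 Gy (WT IR), and the same pair from mice with the leukemia fusion gene Cbfb-MYH11 at a stage before leukemia (CM NIR and CM IR). Cells were sorted first and irradiated afterwards, and the NIR cells went through the same incubation. Each genotype had 3 animals, and each animal gave 1 NIR and 1 IR library, 12 in all. The age of the animals and the means by which the fusion gene was switched on were not found in the labels.

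NRF2, encoded by Nfe2l2, is the transcription factor that drives many antioxidant genes. In resting cells KEAP1 holds NRF2 and sends it for degradation; oxidants and electrophiles modify KEAP1, and NRF2 then gathers in the nucleus and binds antioxidant response elements together with small MAF proteins. Its targets make and recycle glutathione and thioredoxin, supply NADPH, break down heme and store iron, and peroxiredoxins, catalase and glutathione peroxidases use those reducing systems to remove peroxides. Blood stem cells are known to be sensitive to reactive oxygen.

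The upstream sequences of 4 members are shown because Prdx4 was the member with a called difference between the genotypes, while Gclm, G6pdx and Prdx1 hold the letters of an antioxidant response element and share a pattern over the CM animals described further on. Gclm, G6pdx and Prdx1 were picked for having both. Nfe2l2 also had both, as did Srxn1 and Pgd, whose matches lay past an annotated start and so outside the 250 bases. Fth1, Ftl1 and Gpx3, among others, had the pattern without those letters. Sod1, Txnrd1 and Me1 had the letters without the pattern. Each run gives the 250 bases before the annotated transcription start, 5′ to 3′ on the strand of the gene, from RefSeq on GRCm38.p6, at chrX:155338461-155338710 (minus strand) for Prdx4, chr3:122245307-122245556 (plus strand) for Gclm, chrX:74428881-74429130 (minus strand) for G6pdx and chr4:116685349-116685598 (plus strand) for Prdx1. Capitals mark a match to TGACNNNGC on either strand, and all capitals here are the reverse complement of the match.
Prdx4: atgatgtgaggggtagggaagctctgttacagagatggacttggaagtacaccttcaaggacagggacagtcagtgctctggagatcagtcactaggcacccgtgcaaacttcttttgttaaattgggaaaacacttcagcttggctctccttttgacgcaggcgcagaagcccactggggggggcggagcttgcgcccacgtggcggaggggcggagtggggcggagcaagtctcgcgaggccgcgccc
Gclm: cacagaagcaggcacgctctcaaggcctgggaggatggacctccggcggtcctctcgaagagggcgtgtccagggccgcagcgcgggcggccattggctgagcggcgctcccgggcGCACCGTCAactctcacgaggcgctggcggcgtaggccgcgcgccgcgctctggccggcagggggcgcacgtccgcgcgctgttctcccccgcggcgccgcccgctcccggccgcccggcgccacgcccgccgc
G6pdx: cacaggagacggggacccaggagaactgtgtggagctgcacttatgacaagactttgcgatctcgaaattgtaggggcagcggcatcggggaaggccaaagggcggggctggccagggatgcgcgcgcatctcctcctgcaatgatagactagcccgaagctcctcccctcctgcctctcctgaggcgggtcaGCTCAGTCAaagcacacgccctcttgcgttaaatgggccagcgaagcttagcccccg
Prdx1: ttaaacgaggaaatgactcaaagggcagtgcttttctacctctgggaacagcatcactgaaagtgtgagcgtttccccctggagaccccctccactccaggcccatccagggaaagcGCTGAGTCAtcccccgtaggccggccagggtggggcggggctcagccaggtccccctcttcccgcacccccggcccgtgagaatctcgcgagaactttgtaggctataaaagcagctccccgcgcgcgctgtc
The match in Gclm, TGACGGTGC, starts 134 bases upstream of the start site, that in G6pdx, TGACTGAGC, 57 bases upstream, and that in Prdx1, TGACTCAGC, 133 bases upstream, where it overlaps the AP-1 letters TGACTCA. The window of Prdx4 held no match.

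RefSeq promoters, taken as 300 bases from 250 before to 50 after a start, were matched for 32 of the 37 members, with 45 promoters in all. Hmox1, Gclc, Gsr, Prdx6 and Gsta4 had no entry. TGACNNNGC was found on either strand in 9 of the 45 member promoters and in 4071 of all 32851 promoters (12.4%). The 9 members were Nfe2l2, Srxn1, Gclm, Txnrd1, Prdx1, Sod1, G6pdx, Pgd and Me1. TGACTCA was found in 6 of the 45 (13.3%) and in 5.20% of all promoters, and it lay within the longer match in Prdx1 and Me1. A match in such a window is a description of its letters and not a measured binding site.

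Library totals ran from 68.5 to 111 M gene counts. The sorted cells carried stem and progenitor markers in all 12 libraries: Kit ranged from 148 to 284 CPM, where CPM is the count scaled to library size with TMM factors, and Cd34 from 229.6 to 744 CPM. The 6 hemoglobin genes of the erythroid list (Hba-a1, Hba-a2, Hbb-bs, Hbb-bt, Hbb-b1 and Hbb-b2) were listed at 0 in all libraries. The CM libraries did not form 1 group: on the first principal component over all tested genes (51.5% of the variance) the NIR libraries of CM animals 1 and 3 and the IR library of CM animal 1 lay at -75.0, -75.9 and -78.8, the libraries of CM animal 2 at 23.0 and 19.3, among the WT libraries (-1.36 to 45.1), and the IR library of CM animal 3 at -8.92. On the second component (21.9% of the variance) the libraries of CM animal 2 lay at -67.9 and -57.2, apart from the WT libraries (2.38 to 37.7) and from the other CM libraries (-4.49 to 8.45). The NIR library of CM animal 3 deviated from its group mean more like the IR library of CM animal 1 (r = 0.686 across genes) than like the IR library of its own animal (r = 0.125).

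Per unit of exon length, the ferritin subunits stood at the top, followed by a glutathione peroxidase and thioredoxin. The heavy chain gene Fth1 averaged 1050.5 RPKM (609.8 to 1887) over the 12 libraries, where RPKM is the read count scaled to exon length and library size, and the parentheses give the lowest and highest library. The light chain gene Ftl1 averaged 937 RPKM (492 to 1799), and its range covered that of Fth1 for most of its length, so their order is not separated by the spread. Gpx1, the main cytosolic glutathione peroxidase, followed at 576 RPKM (491 to 690.5), with the cytosolic thioredoxin gene Txn1 at 253 RPKM (222 to 304). Between them and the low end lay Taldo1 at 227 RPKM (157 to 324), Prdx1 at 188 RPKM (146 to 271) and Hmox1 at 159.8 RPKM (45.8 to 397), a gene whose range was far wider than those of its neighbours. The classical NRF2 target Nqo1 was low at 7.74 RPKM (5.30 to 18.2), as was the cystine transporter gene Slc7a11 at 6.42 RPKM (3.83 to 7.65). Me1 was the lowest at 0.625 RPKM (0.492 to 0.725), just under Gsta4 at 0.991 RPKM (0.248 to 1.55), and these ranges overlapped.

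**Figure D1:**
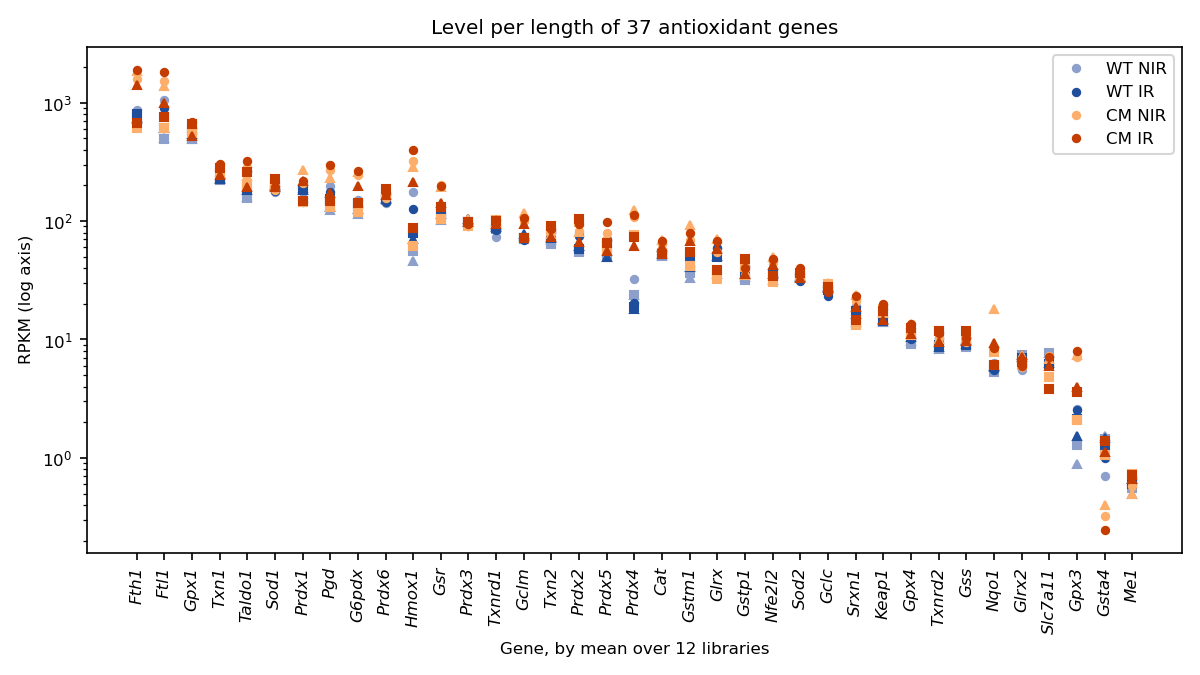
Level per length (RPKM, log axis) of the 37 genes, ordered by the mean over 12 libraries; each point is 1 library, coloured by group and shaped by animal (circle 1, square 2, triangle 3). Fth1 and Ftl1 lead at means of 1050.5 and 937 RPKM and Me1 is last at 0.625 RPKM, while the points of Hmox1 and Gpx3 spread widely and those of Prdx4 separate by genotype.

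The comparison of CM with WT cells asked which of these genes differ in cells that carry the fusion gene. One member passed the test, Prdx4, and it was higher in CM both without and after irradiation. In unirradiated cells 237 of 14599 genes (1.62%) passed at an edgeR adjusted p under 0.05, 0.938% of genes being higher and 0.685% lower, and the 1 of 37 members is 2.70%. After irradiation 97 genes (0.664%) passed, 0.390% higher and 0.274% lower, again with 1 member. More members leaned to the CM side than did genes in general. In unirradiated cells 33 of 37 log2 fold changes were above 0 (89.2%, against 52.6% of all tested genes), with a median of 0.286 against 0.0172. After irradiation 33 of 37 were above 0 as well (52.9% of all genes), with a median of 0.194 against 0.0178. At an unadjusted p under 0.05 there were 12 members in unirradiated cells (32.4%, all higher in CM, against 15.1% of all genes in either direction) and 6 after irradiation (16.2%, all higher, against 11.8%). The standard error of a member's log2 fold change ran from 0.0806 to 0.719 in unirradiated cells, with a median of 0.184, so most differences of the median size were not set apart from that error. It comes from 1 fit over all 12 libraries without a term for the animal, and is not the spread within a group. Between the 3 animals of a group, the median SD of log2 CPM over the members was 0.169 in WT NIR and 0.263 in CM NIR. It was 0.092 in WT IR and 0.282 in CM IR.

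**Figure D2:**
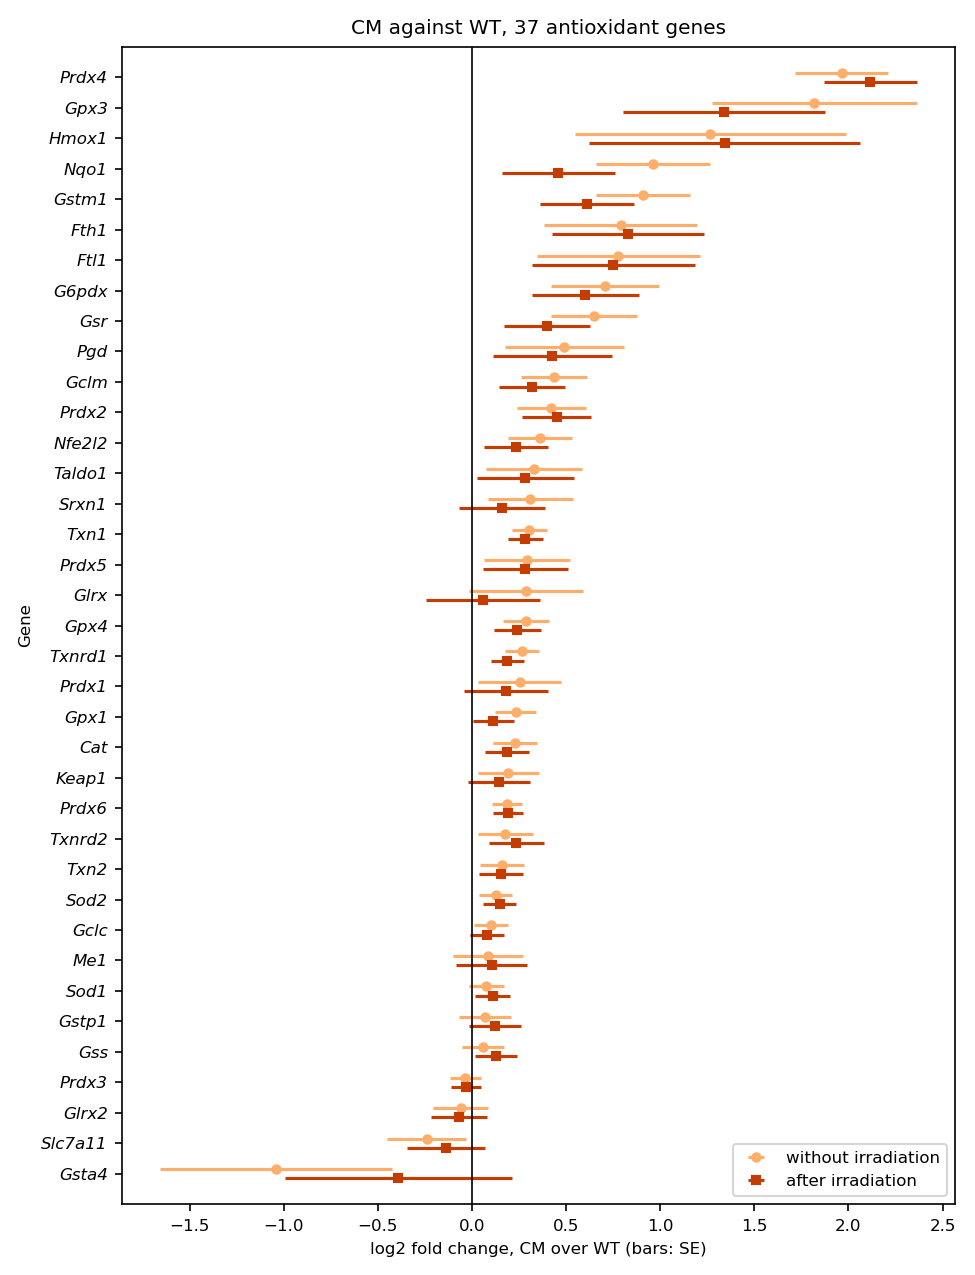
Log2 fold change of CM over WT for each of the 37 genes, ordered by the value in unirradiated cells; circles are unirradiated cells, squares irradiated cells, and bars are the standard error of the edgeR fit with 3 animals per group. Prdx4 stands at 1.96 and 2.12, Hmox1 and Gpx3 have long bars, and 33 of the 37 genes lie to the right of 0 in each comparison.

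Prdx4 encodes the peroxiredoxin of the endoplasmic reticulum, which removes hydrogen peroxide made during protein folding (chrX:155323918-155338460, minus strand, mm10). Without irradiation its level in WT animals 1, 2 and 3 was 32.6, 23.5 and 23.6 CPM, and in CM animals 1, 2 and 3 it was 109, 76.7 and 125 CPM. After irradiation the same animals gave 20.2, 18.6 and 18.02 CPM in WT and 112, 73.3 and 61.3 CPM in CM. Every CM library was above every WT library, CM animal 2 included, and the lowest CM library was the irradiated one of animal 3. The log2 fold change of CM over WT was 1.96 ± 0.25 (SE) without irradiation, a 3.90-fold difference with an edgeR adjusted p = 0.0119, and 2.12 ± 0.25 after irradiation, a 4.34-fold difference with an edgeR adjusted p = 0.0126. With the animal as a random block (limma-voom) the adjusted p was 0.0733 without and 0.0566 after irradiation, which ends both calls. The 2 comparisons use the same animals and are not independent.

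The direction of the Prdx4 difference held in all 26 alternatives of each comparison, with log2 fold changes from 1.81 to 2.14 without and from 1.81 to 2.30 after irradiation, while the call held in 18 and 17 of them. In unirradiated cells the call was lost without the NIR library of WT animal 2 (edgeR adjusted p = 0.0569), WT animal 3 (0.0623), CM animal 1 (0.0664) or CM animal 3 (0.0721). After irradiation it was lost without the IR library of WT animal 1 (edgeR adjusted p = 0.0867), WT animal 2 (0.0777) or WT animal 3 (0.109). In both conditions the call was also lost without both libraries of WT animal 1, 2 or 3. After irradiation it was lost as well without both libraries of CM animal 1, and in the fit of the 6 irradiated libraries alone. Marker lists for other blood cells differed between the genotypes as well. The early granule list (6 of 6 tested, led by Mpo) was lower in every CM library than in every WT library of the same condition: it summed to 3999, 3521 and 3659 CPM in WT NIR and 3080.0, 3157 and 2791 CPM in CM NIR, and to 5550.0, 5084 and 4784 CPM in WT IR and 3253, 4471 and 3053 CPM in CM IR. The mast cell and basophil list summed to 590.5, 233 and 268 CPM in WT NIR and 1273, 282 and 1702 CPM in CM NIR, with CM animal 2 within the WT range. The part of these cells in the Prdx4 difference was not tested.

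Prdx4 was 1 of a set of members with every CM library above every WT library of the same condition, and the others of that set did not pass the test. In unirradiated cells 9 of 37 members had all CM libraries above all WT libraries (24.3%, against 8.14% of all tested genes) and 0 had them below (7.84% of genes); after irradiation the counts were 10 (27.0%, against 9.23%) and 0 (8.36%). The 7 members in both sets, which are 7 of 9 and 7 of 10, were Prdx4, Nqo1, Gstm1, Txn1, Txnrd1, Prdx6 and Gpx4. Prdx2 and Gpx1 were in the unirradiated set alone, and Gsr, Gpx3 and G6pdx in the irradiated set alone; whether those members differ between the conditions was tested with the difference of the contrasts, which passed for 0 genes.

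Among the regulators, Nfe2l2 stood at 134, 122 and 123 CPM in WT NIR and 173, 118 and 195 CPM in CM NIR. CM animals 1 and 3 were above and CM animal 2 was below the WT libraries, and the log2 fold change was 0.36 ± 0.17 (edgeR adjusted p = 0.360). Keap1, the adaptor that targets NRF2 for degradation, ranged from 63.3 to 90.5 CPM over the 12 libraries, and its groups overlapped in both comparisons.

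Of the NRF2 target enzymes, Nqo1, a quinone reductase (chr8:107388225-107403205, minus strand, mm10), was 10.03, 8.30 and 9.29 CPM in WT NIR and 12.8, 12.2 and 28.8 CPM in CM NIR. After irradiation it was 8.72, 9.23 and 9.36 CPM in WT and 13.4, 9.47 and 14.7 CPM in CM. The libraries did not overlap in either condition, although irradiated CM animal 2 exceeded the highest WT IR library only narrowly and the NIR library of CM animal 3 was far above the other CM libraries. The log2 fold change was 0.96 ± 0.30 without irradiation (edgeR adjusted p = 0.156) and 0.46 ± 0.30 after it (0.625). Hmox1, the heme oxygenase that frees iron from heme (chr8:75093618-75100593, plus strand, mm10), was 283, 89.3 and 72.98 CPM in WT NIR and 515, 98.3 and 458 CPM in CM NIR. The WT and CM ranges overlapped, since WT animal 1 was high among the WT libraries and CM animal 2 was low. Its log2 fold change of 1.27 ± 0.72 carried the largest error of the 37 (edgeR adjusted p = 0.448). Srxn1, which repairs overoxidized peroxiredoxins, ranged from 37.8 to 68.3 CPM and overlapped between the genotypes.

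**Figure D3:**
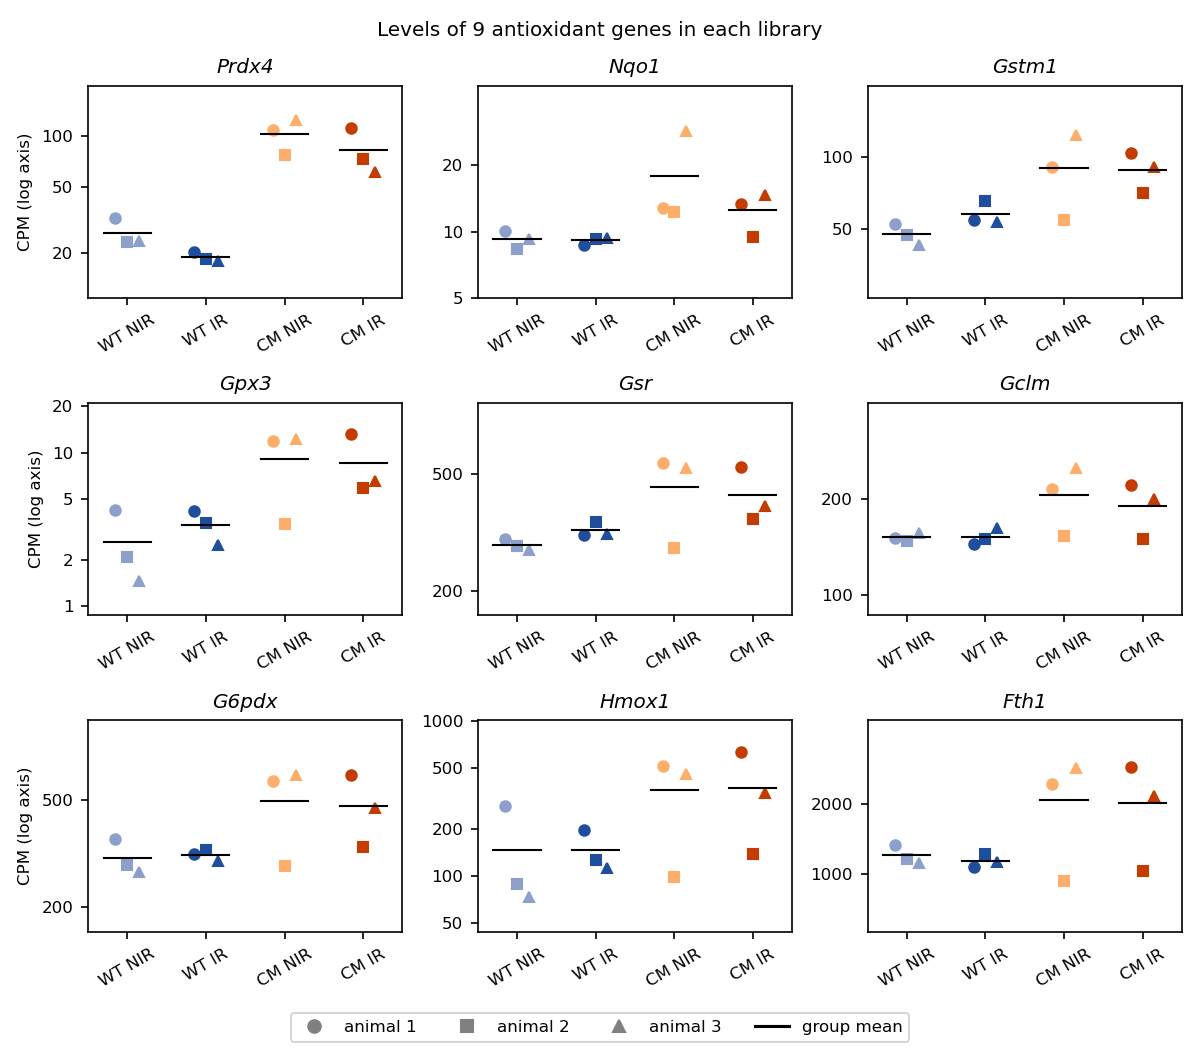
CPM (log axis, a separate scale in each panel) of 9 members in each library, by group; symbols mark the animal and bars the group mean of 3. Every CM point of Prdx4, Nqo1 and Gstm1 is above the WT points of the same treatment, while for Hmox1, Gclm and Fth1 the squares of CM animal 2 lie in or near the WT range and CM animals 1 and 3 lie above it.

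Glutathione is made by glutamate-cysteine ligase, whose catalytic and modifier subunits are Gclc and Gclm, and then by Gss. Gclm was 151, 147 and 156 CPM in WT NIR and 214, 153 and 248 CPM in CM NIR. CM animals 1 and 3 were above all WT libraries and CM animal 2 was inside their range, with a log2 fold change of 0.44 ± 0.18 (edgeR adjusted p = 0.274). The other subunit showed no such spread: Gclc ranged only from 85.02 to 109.9 CPM over the 12 libraries, with a log2 fold change of 0.10 ± 0.09. Gsr, which returns oxidized glutathione to its reduced form, was 300.3, 285 and 276 CPM in WT NIR and 547, 281 and 524 CPM in CM NIR. Again CM animals 1 and 3 were high and CM animal 2 was within the WT range; after irradiation all 3 CM libraries (529.8, 351 and 390.1 CPM) were above WT (309, 343 and 312 CPM). The log2 fold change of Gsr was 0.65 ± 0.23 without irradiation (edgeR adjusted p = 0.200) and 0.40 ± 0.23 after it (0.564). Slc7a11, which imports the cystine for glutathione (chr3:50364936-50443613, minus strand, mm10), had the opposite sign: 68.2, 71.3 and 71.4 CPM in WT NIR and 69.002, 45.1 and 64.5 CPM in CM NIR. CM animal 2 was lowest, CM animal 3 was also below every WT NIR library and CM animal 1 was within their range, and the log2 fold change was -0.24 ± 0.21 (edgeR adjusted p = 0.623). Gss (17.2 to 23.2 CPM) and the glutaredoxins Glrx (43.98 to 95.4 CPM) and Glrx2 (20.9 to 28.3 CPM) overlapped between the genotypes.

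In the thioredoxin system the cytosolic pair differed by small amounts with little spread. Txn1 was 248, 235 and 244 CPM in WT NIR and 315, 270.3 and 314 CPM in CM NIR, and its reductase Txnrd1 was 301, 347 and 379 CPM in WT NIR and 422, 413.3 and 399.6 CPM in CM NIR. Neither overlapped between the genotypes, and both log2 fold changes missed the threshold: 0.31 ± 0.092 for Txn1 (edgeR adjusted p = 0.140) and 0.27 ± 0.09 for Txnrd1 (0.187). The mitochondrial pair Txn2 and Txnrd2 overlapped, with log2 fold changes of 0.16 ± 0.12 and 0.18 ± 0.15.

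Among the other peroxiredoxins, Prdx6, which also acts on lipid peroxides, was 362, 381 and 395 CPM in WT NIR and 402, 438 and 457 CPM in CM NIR. Its groups did not overlap, at a log2 fold change of 0.19 ± 0.081 (edgeR adjusted p = 0.307). Prdx2, the abundant peroxiredoxin of red cells, was 126, 86.7 and 96.1 CPM in WT NIR and 132, 153 and 128 CPM in CM NIR, with its highest CM library in animal 2. Prdx1, the main cytosolic form, went the other way among the CM animals, at 306, 210.1 and 392 CPM against 226, 262 and 273 CPM in WT NIR, so that CM animal 2 was below every WT library. Prdx3, the mitochondrial form, varied least (133 to 153 CPM, log2 fold change -0.034 ± 0.081), and Prdx5 (63.5 to 125 CPM) overlapped between the genotypes.

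Of the enzymes that remove superoxide and peroxide, Gpx3, a glutathione peroxidase that is secreted (chr11:54902854-54910387, plus strand, mm10), had the largest log2 fold change after Prdx4 in unirradiated cells. It was low in all libraries, at 4.25, 2.08 and 1.46 CPM in WT NIR and 11.8, 3.45 and 12.2 CPM in CM NIR. CM animals 1 and 3 were high and CM animal 2 lay below WT animal 1, giving a log2 fold change of 1.82 ± 0.55 (edgeR adjusted p = 0.138). After irradiation the CM libraries (13.2, 5.90 and 6.58 CPM) were all above WT (4.14, 3.49 and 2.49 CPM), at 1.34 ± 0.54 (edgeR adjusted p = 0.337). Gpx4, which reduces lipid peroxides in membranes, was 16.003, 13.6 and 14.3 CPM in WT NIR and 17.1, 16.3 and 20.1 CPM in CM NIR, without overlap (log2 fold change 0.29 ± 0.12, edgeR adjusted p = 0.306). Gpx1 was higher in all 3 CM NIR libraries (660.0, 592 and 650.4 CPM against 578, 519 and 521 CPM) and overlapped after irradiation. Cat, which encodes catalase, had a log2 fold change of 0.23 ± 0.12, and the superoxide dismutases Sod1 and Sod2 had 0.076 ± 0.093 and 0.13 ± 0.087, all with overlapping groups.

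Gstm1, a glutathione S-transferase of the mu class (chr3:108012250-108017973, minus strand, mm10), was 52.5, 47.3 and 43.2 CPM in WT NIR and 90.9, 54.8 and 123 CPM in CM NIR. After irradiation it was 54.5, 65.3 and 53.6 CPM in WT and 104, 70.7 and 90.5 CPM in CM. The groups did not overlap in either condition, with CM animal 2 the closest to WT, and the log2 fold change was 0.91 ± 0.25 without irradiation (edgeR adjusted p = 0.110) and 0.61 ± 0.25 after it (0.349). The other 2 members of the family did not share this: Gstp1 overlapped (23.9 to 35.7 CPM), and Gsta4 was near 1 CPM or below, lowest in the NIR libraries of CM animals 1 and 3 and the IR library of CM animal 1, with a log2 fold change of -1.04 ± 0.61. Gsta4 had the lowest count of the 37, at 20 in its lowest library.

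NADPH for the glutathione and thioredoxin reductases comes largely from the pentose phosphate pathway. Its first enzyme, G6pdx, was 357, 287 and 269.7 CPM in WT NIR and 587, 284 and 618 CPM in CM NIR, and Pgd, which acts later in the same branch, was 456, 306 and 287 CPM in WT NIR and 631, 303 and 539 CPM in CM NIR. For both genes CM animals 1 and 3 were above WT and CM animal 2 was within the WT range. The log2 fold changes were 0.71 ± 0.29 for G6pdx (edgeR adjusted p = 0.277) and 0.49 ± 0.32 for Pgd (0.507). G6pdx overlaps Ikbkg, which lies on the opposite strand and averaged 74.96 CPM against 397 CPM for G6pdx, and whether the counting used strand is not given in the sources used here. Taldo1 (0.33 ± 0.26) and Me1 (0.085 ± 0.19) overlapped between the genotypes. The ferritin subunits repeated the split: Fth1 was 1331, 1160.3 and 1115 CPM in WT NIR and 2428, 934 and 2870.3 CPM in CM NIR, and Ftl1 was 1047, 481 and 498 CPM in WT NIR and 1509, 602 and 1363 CPM in CM NIR. CM animal 2 was below every WT library for Fth1, and the log2 fold changes of 0.79 ± 0.40 and 0.78 ± 0.43 missed the threshold (edgeR adjusted p = 0.402 and 0.442).

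Counted over all 37 members, the NIR library of CM animal 1 was above all 3 WT NIR libraries in 24 members, that of CM animal 2 in 13 and that of CM animal 3 in 28, while 33.5%, 33.3% and 32.0% of all tested genes lay above WT in the same libraries. After irradiation the counts were 31, 20 and 20 members, against 38.8%, 36.9% and 32.6% of genes. CM animal 2 was the lowest of the 3 CM NIR libraries in 24 of 37 members (41.8% of genes). Among the CM IR libraries, animal 2 was the lowest in 16 members (38.4% of genes) and animal 3 in 16 as well (25.3%). The split of animals 1 and 3 from animal 2 was thus not kept after irradiation. Without the NIR library of CM animal 2, 9 members passed in unirradiated cells (24.3%, with 914 genes or 6.16% passing): Nfe2l2, Nqo1, Gclm, Gsr, Txn1, Prdx4, Gpx3, Gstm1 and G6pdx. Where CM animal 1 or CM animal 3 was left out of the unirradiated group instead, 0 members passed, and 8 and 4 of all genes did. DESeq2 on all 12 libraries passed 4 members in unirradiated cells, Prdx4, Nqo1, Gpx3 and Gstm1 (10.8%, against 6.32% of genes), and 1 after irradiation (4.47% of genes).

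**Figure D4:**
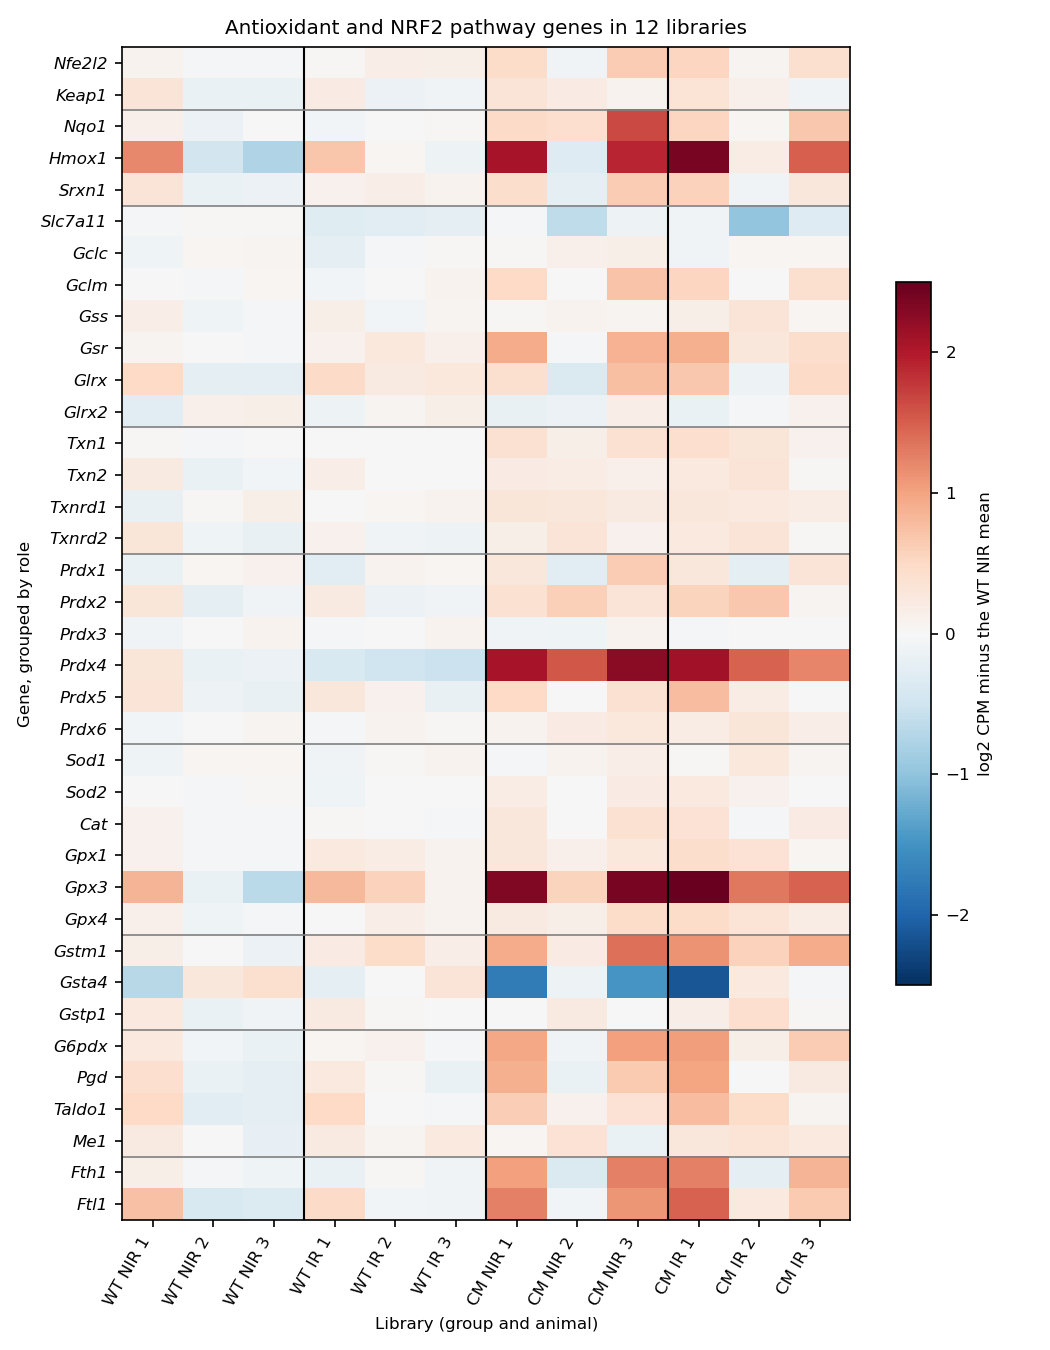
Log2 CPM of each member in each library minus its mean over the 3 WT NIR libraries (red higher, blue lower), with genes grouped by role and vertical lines between the groups. Prdx4 is red in all 6 CM columns, while Hmox1, Fth1 and Ftl1 are red in CM animals 1 and 3 and pale in CM animal 2.

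Markers of other cells were high in the same libraries. The macrophage list (10 of 10 genes tested, none at 0 in all libraries, led by Mrc1) summed to 2826, 694 and 794 CPM in WT NIR, 2080.0, 1171 and 1319 in WT IR, 2814, 533 and 2596 in CM NIR and 3141, 745 and 2216 in CM IR. Without irradiation WT animal 1 was thus as high as CM animals 1 and 3, after irradiation it was below both, and CM animal 2 was the lowest in each condition. Across the 12 libraries, which share animals, the median correlation of the 37 members with this sum was r = 0.467, against -0.0452 over all tested genes. Of the members, 5 of 37 (13.5%) correlated with this sum at r over 0.8, against 9.67% of all tested genes: Glrx (0.959), Srxn1 (0.927), Hmox1 (0.902), Ftl1 (0.873) and Pgd (0.863). Prdx4 had an r of 0.332.

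The mast cell and basophil list (10 of 10 tested, led by Cpa3) summed after irradiation to 397, 251 and 295 CPM in WT and 1447, 321 and 938 CPM in CM, and the neutrophil list (11 of 12 tested, led by Mmp8) to 497, 348 and 248 CPM in WT NIR and 914, 206 and 1788 CPM in CM NIR. Both were highest in the NIR library of CM animal 3 and within or below the WT NIR range in CM animal 2 without irradiation. The megakaryocyte list (7 of 8 tested) gave 290.4, 133 and 116 CPM in WT NIR and 415, 211 and 484 CPM in CM NIR. The erythroid list (11 of 17 tested) summed to 1091, 706 and 905 CPM in WT NIR and 662, 634 and 714 CPM in CM NIR, with overlap, and to 745, 658 and 772 CPM in WT IR and 582, 604 and 592 CPM in CM IR, where every CM library was below every WT library. The B cell list (5 of 8 tested) summed to 13.7, 15.4 and 14.5 CPM in WT NIR and 16.8, 14.97 and 19.2 CPM in CM NIR, which overlapped. The T and NK cell list (6 of 10 tested) was lower in CM animals 1 and 3 than in animal 2, at 8.99, 30.4 and 8.45 CPM against 29.1, 23.7 and 24.5 CPM in WT NIR, and the LSK list (14 genes) gave 1445, 2239 and 1629 CPM against 1265, 1730.0 and 1698 CPM in WT NIR. The part of these cells in the values of Hmox1, Gclm, Gsr, G6pdx, Pgd and ferritin was not tested, and in bulk RNA a change in the number of cells of a type and a change of RNA per cell cannot be told apart.

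Comparing IR with NIR cells asked how the members respond to 3.5 Gy after 24 hours. Without a term for the animal, no member passed in WT cells, in CM cells or in the average of both genotypes. That edgeR fit leaves the pairing by animal unused. It passed 17 genes in WT cells (0.116%), 1 in CM cells (0.00685%) and 45 in the average (0.308%). At an unadjusted edgeR p under 0.05 the members in it numbered 0, 0 and 1, against 4.05%, 1.62% and 5.19% of all tested genes. DESeq2 and limma-voom passed 0 members as well. With the animal as a block, 0 members passed in WT and 0 in CM cells, while 163 and 0 of all genes did. In the average, Slc7a11 passed with the block (edgeR adjusted p = 0.0436), among 302 genes. Without the block, the median log2 fold change of the members was 0.0201 in WT, -0.00477 in CM and 0.0203 in the average. In WT cells Gsr and Gstm1 had all IR libraries above all NIR libraries (2 of 37 or 5.41%, against 7.47% of genes), and Slc7a11 and Prdx4 had them all below (2 of 37, against 6.63%). In CM cells 0 members were separated in either direction (1.57% and 0.986% of genes). Both counts in WT are near the share over all genes.

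Within animals, 4 members were higher after irradiation in all 3 WT animals (19.9% of genes) and 3 lower (22.5%), and in the 3 CM animals 1 was higher and 3 lower (11.4% of genes in each direction). Over both genotypes 0 members were higher in 6 of 6 animals (5.93% of genes), and Slc7a11 and Gclc were lower in 6 of 6, which is 5.41% of members against 6.63% of all genes. Slc7a11 went from 68.2, 71.3 and 71.4 CPM to 56.7, 57.6 and 59.4 CPM in WT animals and from 69.002, 45.1 and 64.5 CPM to 65.7, 35.6 and 56.5 CPM in CM animals. The difference of log2 CPM, IR minus NIR, was -0.27, -0.31 and -0.27 in WT animals 1, 2 and 3 and -0.07, -0.34 and -0.19 in CM animals 1, 2 and 3. The average log2 fold change was -0.23 ± 0.15 without a term for the animal (edgeR adjusted p = 0.9999) and -0.24 ± 0.042 with the animal as a block (edgeR adjusted p = 0.0436), where 302 genes passed (2.07%: 1.42% higher and 0.651% lower). Slc7a11 was the only member called with the block. Gclc differed by -0.10, -0.10 and -0.041 in WT and -0.11, -0.089 and -0.10 in CM animals, steps that did not pass with the block (edgeR adjusted p = 0.170).

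Prdx4 was lower after irradiation in 5 of 6 animals: the log2 difference was -0.69, -0.34 and -0.39 in WT and 0.035, -0.067 and -1.02 in CM animals. Among the CM animals the large step was that of animal 3, and the average of -0.41 ± 0.17 did not pass (edgeR adjusted p = 0.830, and 0.206 with the block). Hmox1 had both signs: -0.50, 0.51 and 0.63 in WT animals and 0.30, 0.50 and -0.41 in CM animals. WT animal 1 and CM animal 3 had a lower value after irradiation and the other 4 animals a higher one, CM animal 1 with the highest NIR library among them. The macrophage sum given above went in the same direction as Hmox1 in 6 of 6 animals, with log2 differences of -0.44, 0.75 and 0.73 in WT and 0.16, 0.48 and -0.23 in CM animals 1, 2 and 3. The mast cell and basophil sum and the megakaryocyte sum also fell in WT animal 1 and CM animal 3 and rose in the others. These signs are thus not particular to the macrophage list. The same signs in all 6 animals were found for 15 of 37 members (40.5%) and for 1183 of all tested genes (8.10%). Those members were Nfe2l2, Hmox1, Srxn1, Gss, Glrx, Txn2, Txnrd2, Prdx5, Gpx3, Gpx4, G6pdx, Pgd, Taldo1, Fth1 and Ftl1, singled out after their values were seen. The signs were taken from Hmox1, itself a member, and in each animal they were those of most members. The 40.5% is therefore not a test of a link with the macrophage sum. The part of macrophages, or of the other cells named, in these values was not tested. Gpx1 was higher after irradiation in 5 of 6 animals, at 0.15, 0.25 and 0.14 in WT and 0.15, 0.23 and -0.22 in CM.

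CM animal 3 stood apart in this comparison. Of its 37 members 34 were lower after irradiation and 3 higher, with a median of -0.257, while CM animal 1 had 32 and CM animal 2 had 28 higher, with medians of 0.0801 and 0.147. Over all tested genes 50.2% were lower in CM animal 3 and the median was -0.00102. The same animal had mast cell and basophil sums of 1702 CPM before and 938 CPM after irradiation, and a pairing correlation of 0.125, so its 2 libraries differ in more than the members. Among the WT animals, animal 1 had 27 of 37 members lower, and animals 2 and 3 had 31 and 26 higher. By library number, WT animal 1 was in library series A and WT animals 2 and 3 were in series B. CM animals 1 and 2 were in series A and CM animal 3 was in series B. Animal and series cannot be told apart in either split.

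**Figure D5:**
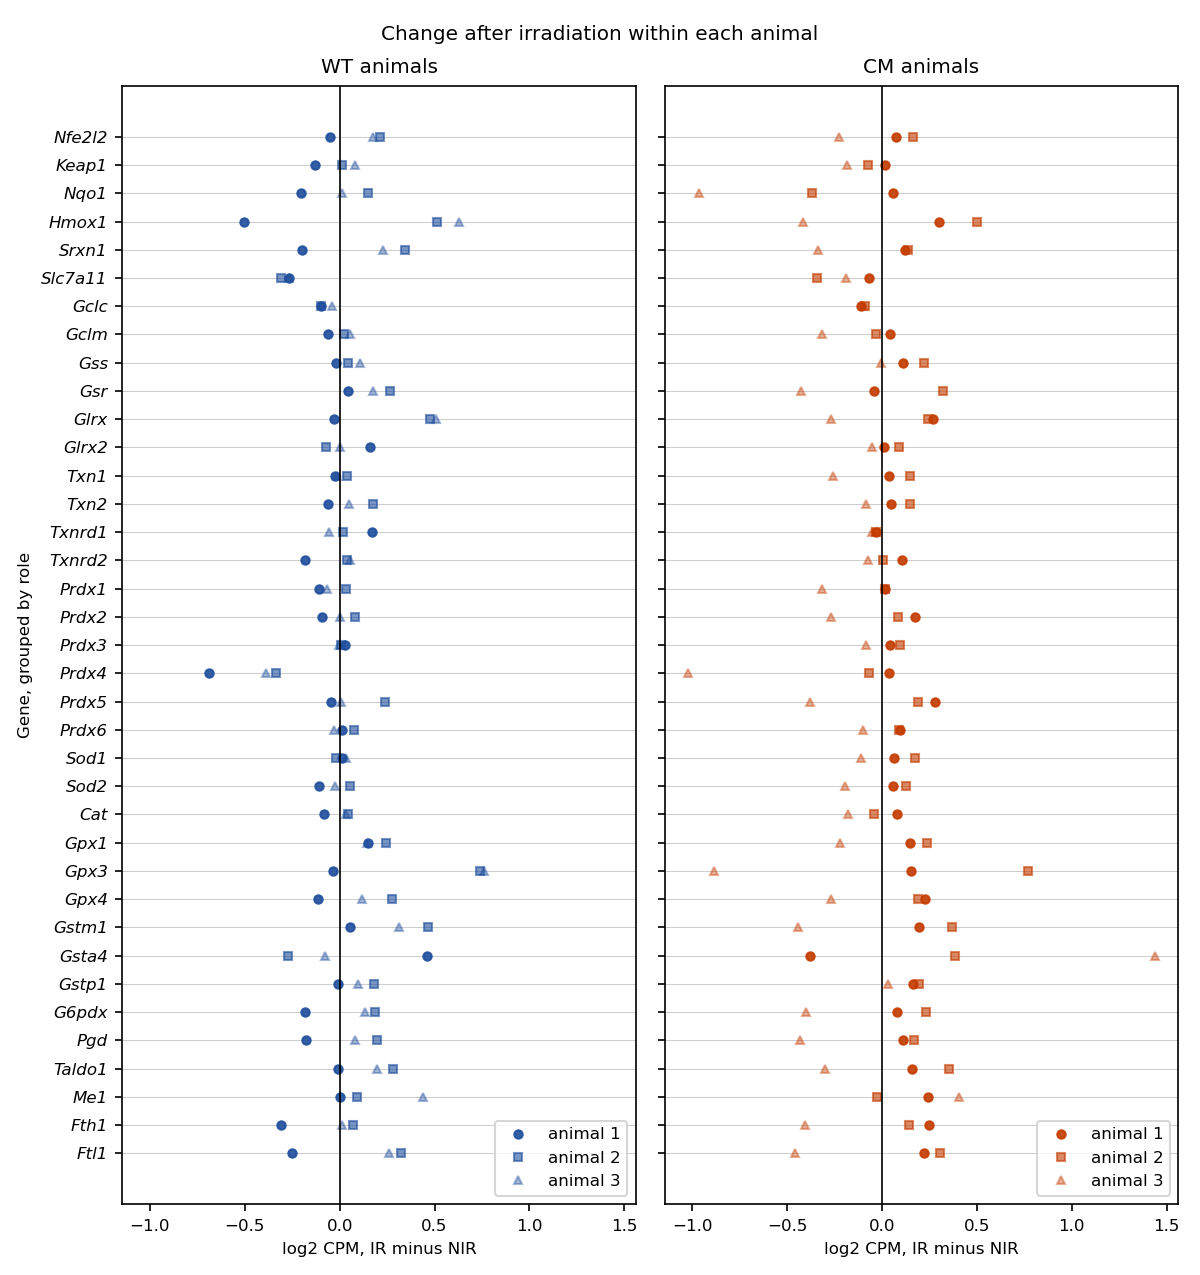
Log2 CPM of the IR library minus that of the NIR library for each of the 37 genes in each WT animal (left) and CM animal (right), with symbols for the animal. Slc7a11 and Gclc are to the left of 0 in all 6 animals, and the triangles of CM animal 3 lie left of 0 for 34 of 37 genes.

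The difference of the irradiation responses between CM and WT passed for 0 members and 0 of all 14599 genes in edgeR, with or without the animal as a block. At an unadjusted edgeR p under 0.05 there were 106 genes (0.726%) and 0 members without the block, and DESeq2 and limma-voom also passed 0 genes. The difference for Prdx4 was 0.15 ± 0.34 and that for Nqo1 -0.50 ± 0.43, with standard errors that leave room for differences of either sign.

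Another 94 genes of the same pathways, in 5 lists, were examined beside the members, and 87 were tested. CM against WT in unirradiated cells passed for 0 of 87, and 49 of the 87 log2 fold changes were above 0, with a median of 0.0501. After irradiation 1 of 87 passed, lower in CM, and 48 were above 0. By list, the counts above 0 in unirradiated and irradiated cells were 8 and 8 of 15 NRF2 partners and regulators, 14 and 12 of 20 further NRF2 targets, 11 and 12 of 24 further glutathione genes, 14 and 16 of 21 further redox enzymes, and 2 and 0 of 7 antioxidant genes linked to p53. The members thus leaned to CM more often than the other pathway genes did, which is a description and was not tested.

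The 3 smallest p values in unirradiated cells belonged to Osgin1, Gstm2 and Pir. Osgin1, an NRF2 target that restrains growth, was 2.94, 1.88 and 1.91 CPM in WT NIR and 8.29, 3.30 and 9.58 CPM in CM NIR, without overlap (1.65 ± 0.45, edgeR adjusted p = 0.102). Gstm2 (4.32, 1.31 and 7.71 CPM in CM NIR against 1.76, 0.478 and 0.487 CPM in WT NIR) and Pir (5.77, 2.48 and 6.87 against 2.71, 2.05 and 1.79 CPM) again had CM animals 1 and 3 above WT and CM animal 2 within its range. After irradiation Gpx8, a peroxidase of the endoplasmic reticulum as PRDX4 is, had a mean of 0.198 CPM in CM and 0.0325 CPM in WT, too low to read closely (edgeR adjusted p = 0.0624).

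Of the 87 other pathway genes tested, 2 passed for irradiation in WT cells, 1 in CM cells and 2 in the average, all higher after irradiation. They were Ephx1, an epoxide hydrolase that is a textbook NRF2 target, and Trp53inp1, a p53 target that served as a check of the irradiation labels. Trp53inp1 was 20.3, 20.1 and 18.6 CPM in WT NIR and 79.7, 87.1 and 85.5 CPM in WT IR, and 18.3, 15.7 and 17.7 CPM in CM NIR and 38.3, 52.8 and 44.5 CPM in CM IR, without overlap in either genotype. It passed in WT (2.10 ± 0.12, edgeR adjusted p = 8.75e-05) and in CM (1.39 ± 0.12, edgeR adjusted p = 0.00421, and 0.0997 with the block), and it was the single gene that passed in CM. Trp53inp1 kept its call in CM in 19 of 25 alternatives. It lost that call, among others, without the NIR library of CM animal 3 (edgeR adjusted p = 0.0509). It was also the 1 other pathway gene that passed as lower in CM than in WT after irradiation (-0.90 ± 0.12, edgeR adjusted p = 0.0228, and 0.0743 with the random block). That call held in 13 of 26 alternatives. It was lost, among others, without the NIR library of WT animal 2 (0.0568), WT animal 3 (0.0502) or CM animal 3 (0.0512). It was also lost without the IR library of WT animal 1, 2 or 3 (0.0867, 0.0975 and 0.130) or CM animal 1 (0.102, all edgeR adjusted p). Ephx1 was 1.40, 1.06 and 0.948 CPM in WT NIR and 4.88, 3.004 and 4.45 CPM in WT IR, and 1.08, 1.04 and 0.985 CPM in CM NIR and 1.69, 2.23 and 1.72 CPM in CM IR. All IR libraries were above the NIR libraries of the same genotype. Ephx1 passed in WT at 1.85 ± 0.24 (edgeR adjusted p = 0.0274) and in the average of the genotypes at 1.36 ± 0.17 (0.00914), and missed the threshold in CM at 0.86 ± 0.24 (edgeR adjusted p = 1).

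The difference of the Ephx1 responses, -0.99 ± 0.33, did not pass (edgeR adjusted p = 1). Its call in WT cells was held by 13 of 25 alternatives: without a single WT library it was lost for NIR animals 1, 2 and 3 (edgeR adjusted p = 0.0660, 0.256 and 0.253) and for IR animals 1 and 3 (0.135 and 0.154). Leaving out unirradiated CM animal 1 ended it too (0.0672), as did leaving out unirradiated CM animal 3 (0.0586). The call in the average was held by 19 of 25 alternatives, with log2 fold changes from 1.23 to 1.45 over all of them. Among those that lost it was the fit without the NIR library of WT animal 3 (edgeR adjusted p = 0.0505). Sesn2, a stress-induced regulator that p53 also drives, was 36.6, 32.8 and 30.04 CPM in WT NIR and 56.4, 51.9 and 51.3 CPM in WT IR without overlap, at 0.68 ± 0.12 (edgeR adjusted p = 0.0963, and 0.0257 with the block).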

How the data were processed

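Count and RPKM tables of the same 12 libraries were used. The deposited counts are whole numbers per gene; HTSeq 0.6.1p1, TopHat2, bcl2fastq 2.18.0.12 and build mm10 are named in the submitters' processing notes. The deposited RPKM values are scaled to exon length and to 0.950 to 1.04 times the total counts. With strand setting and annotation release not given in the sources used here, genes that overlap another (Txnrd1, Txnrd2, Prdx1, Prdx5, G6pdx, Me1) and those with close copies or pseudogenes (Fth1, Ftl1, Prdx1, Txn1, Gstm1, Gstp1, Gpx4, G6pdx) are uncertain. No column belonged to another sample.

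The low-count filter was filterByExpr, at 10 counts per library and 15 in total. All 12 libraries were fitted in edgeR 4.0.16 (R 4.3.3) with 1 mean per group, TMM scaling and the quasi-likelihood test; Benjamini-Hochberg adjustment ran over 14599 genes, with a threshold of 0.05. The common biological coefficient of variation was 0.290. There were 6 contrasts. CPM are TMM-scaled; log2 CPM used a prior count of 2. RPKM served for levels and in 1 alternative, limma 3.58.1 on log2(RPKM + 0.1). Other alternatives were DESeq2 1.42.0, RLE scaling, limma-voom, no filter, a library series term, the animal as a block, and leaving out libraries or animals. Library series was grouped by library number. Series A held WT animal 1 and CM animals 1 and 2, and series B held WT animals 2 and 3 and CM animal 3. Leaving out both libraries of an animal other than CM animal 3, and fitting 6 libraries alone, were chosen after seeing the data. The fits were tested on simulated counts drawn without an animal effect, so that test cannot check how they behave with paired libraries.

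NIR and IR libraries with the same number come from the same animal by the labels. Deviations from the group means correlated within an animal at 0.672, 0.504 and 0.412 in WT and 0.790, 0.844 and 0.125 in CM animals 1, 2 and 3. All replicates were beyond sampling noise of each other (lowest ratio of chi-square to degrees of freedom 14.1). The WT library names carry 2 different tags whose meaning is not stated; the genotype label is WT for all. Each group has 3 animals.

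The members and the lists were chosen with earlier results of these data known. Named genes were the 37 members, other pathway genes past the threshold or with the 3 smallest p in a contrast, Trp53inp1, and the most abundant cell type markers.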

Additional observations from a re-analysis of the deposited data

How the results depend on the processing

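The number of members called moved with the libraries used, and the cause was not tested. With the animal as a replicate block the average irradiation effect called 1 member in place of 0, and the random replicate block called 0 in place of 1 in both genotype comparisons. DESeq2 called 4 members in unirradiated cells (Prdx4, Nqo1, Gpx3 and Gstm1). Leaving out 1 library gave 0 to 9 members in unirradiated cells and 0 to 1 after irradiation. Leaving out both libraries of WT animal 1, 2 or 3 gave 0 in each comparison. In those fits 2, 2 and 3 of all genes passed without irradiation and 2, 1 and 2 after it. Leaving out those of CM animal 2 gave 12 and 7 members, while 2497 and 1000 of all genes passed. Leaving out those of CM animal 1 gave 0 members after irradiation, while 4 genes passed. Fitting the 6 irradiated libraries alone gave 0. No call of a member changed direction. Of the member log2 fold changes over all alternatives, 19 of 962 changed sign in unirradiated cells and 12 of 962 after irradiation; for the irradiation effect 95 of 925 did in WT and 126 of 925 in CM, near 0.

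Counts over all genes moved more. In unirradiated cells 237 became 5 with the random replicate block, 922 in DESeq2, 4 to 914 without 1 library, 2 to 2497 without 1 animal and 78 in the 6 libraries alone. After irradiation 97 became 13 with that block, 652 in DESeq2, 156 in limma-voom, 14 with a series term, 3 to 270 without 1 library, 1 to 1000 without 1 animal and 0 in the 6 libraries alone. The irradiation effect in WT went from 17 to 163 with the replicate block, 140 in DESeq2, 31 in limma-voom, 40 on RPKM and 1 to 49 without 1 library. In CM 1 became 0 with the block, 18 in DESeq2 and 0 to 3 without 1 library. The average went from 45 to 302 with the block, 169 in DESeq2 and 8 to 50 without 1 library. The lowest count in a library was 20 for Gsta4, 114 for Gpx3, 135 for Me1 and at least 696 for the other members, so counting error matters most for those 3.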
